A study of Mus musculus with 6 samples.

Results

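Retinal endothelial cell genes were followed in whole retinae of 2 mouse genotypes at postnatal day 21 (P21). The set holds 10 genes, Pecam1, Cdh5, Esam, Cldn5, Kdr, Flt1, Tek, Vwf, Plvap and Slc43a3, given by name as genes of the cells that line blood vessels. They were chosen with earlier results of these data known. The share of members called and the rank of Slc43a3 may therefore partly reflect that choice. All 10 were among the 24062 genes of the count table, and all 10 passed the filter that left 16904 genes for testing (a sum of at least 10 counts over the 6 libraries). RNA-seq libraries came from 3 Rb1/p107/Hells TKO retinae (Chx10-Cre, Rb1 lox/lox, p107-/- and Hells lox/lox) and 3 Rb1/p107 DKO retinae (Chx10-Cre, Rb1 lox/lox and p107-/-), strain C57BL/6 by the labels (C57BL/6N in the study's methods). Both groups thus carried the Cre, the floxed Rb1 and the loss of p107, and differed by the floxed Hells alleles. Chx10-Cre acts in a mosaic of retinal progenitor cells, so recombined and unrecombined cells were mixed in each retina, whereas p107 was missing from every cell of both groups. No wild-type retina was among the 6 libraries. The labels do not say that the 3 retinae of a group came from separate litters, so p-values measure the spread between these samples.

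Endothelial cells line the blood vessels, and in the retina they form the inner blood-retina barrier through tight and adherens junctions. They do not arise from retinal progenitors but grow into the retina along its surface, drawn by VEGF-A from glia and neurons, and they are stabilised by angiopoietin-1 acting on TIE2, by Norrin acting on frizzled-4 and by the pericytes that wrap the capillaries. The members cover these roles: PECAM1, VE-cadherin (Cdh5), ESAM and claudin-5 (Cldn5) sit at cell junctions, VEGFR2 (Kdr), VEGFR1 (Flt1) and TIE2 (Tek) are receptor tyrosine kinases, von Willebrand factor (Vwf) is a stored clotting protein, PLVAP forms the diaphragms of fenestrae and caveolae and is low in barrier vessels, and SLC43A3 is a purine nucleobase transporter found in the endothelium of small vessels. In a bulk library, fewer cells of a type and less RNA per cell cannot be told apart.

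Library totals ran from 10343907 to 14203098 counts. Hells, the gene that separates the groups, was lower in each TKO library than in each DKO library (edgeR's quasi-likelihood test, adjusted p = 0.00359). Rb1, floxed in both groups, was called higher in TKO retinae (log2 fold change 0.34, adjusted p = 0.0388 from edgeR). It passed in 1 of the fits with 1 retina left out, and the cause was not tested. Rbl1, the p107 gene, did not pass (0.13, adjusted p = 0.839 from edgeR). Markers of tissue around the retina differed between libraries. DKO replicate 1 had 17936 normalized counts summed over 6 fibroblast and sclera genes, led by collagen genes, against 713 to 2322 in the other 5 libraries. Of 10 lens genes, 6 were called higher in TKO retinae, all of them crystallin genes. The lens genes Mip, Bfsp1, Bfsp2 and Lim2 did not pass (adjusted p = 0.487, 0.685, 0.769 and 0.112 from edgeR) and were highest in TKO replicate 2. The summed normalized counts of the 10 were 680, 4066 and 578 in TKO replicates 1, 2 and 3 and 106.8 to 112 in DKO retinae. Without DKO replicate 1 or 2, 1 lens gene was called. Rod genes identified every library as retina, with 112861 to 215608 normalized counts over 7 genes in DKO and 331099 to 673599 in TKO retinae. Normalized counts are counts divided by the library size, scaled by edgeR's TMM method, relative to the mean of the 6 libraries.

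The endothelial genes did not move together. Slc43a3 fell 5.69-fold and Plvap fell 1.86-fold in TKO retinae, Pecam1 rose 1.83-fold, and the other 7 did not pass an adjusted p of 0.05 from edgeR. Thus 3 of 10 genes were called, 1 higher and 2 lower, where 16.6% of all genes tested were called, 7.35% higher and 9.20% lower. The study also asked for a change of at least 1 on the log2 scale in either direction and for 10 or more normalized counts on average. Under those limits Slc43a3 alone was called, lower in TKO retinae, and edgeR and DESeq2 each called 0 members higher, although 2 members (Pecam1 and Esam) were higher at an unadjusted p under 0.05 from edgeR. Of all genes, 6.35% passed these limits, 1.97% higher and 4.38% lower. The fitted log2 fold change was above 0 for 7 genes and below 0 for 3, with a median of 0.29 beside -0.011 over all genes, of which 48.8% were above 0. Scaling by library totals alone moved the median of all genes to -0.17 and that of the 10 genes to 0.14. With replicate 1 or 2 of either genotype left out, only Slc43a3 passed an adjusted p of 0.05 from edgeR.

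**Figure D1:**
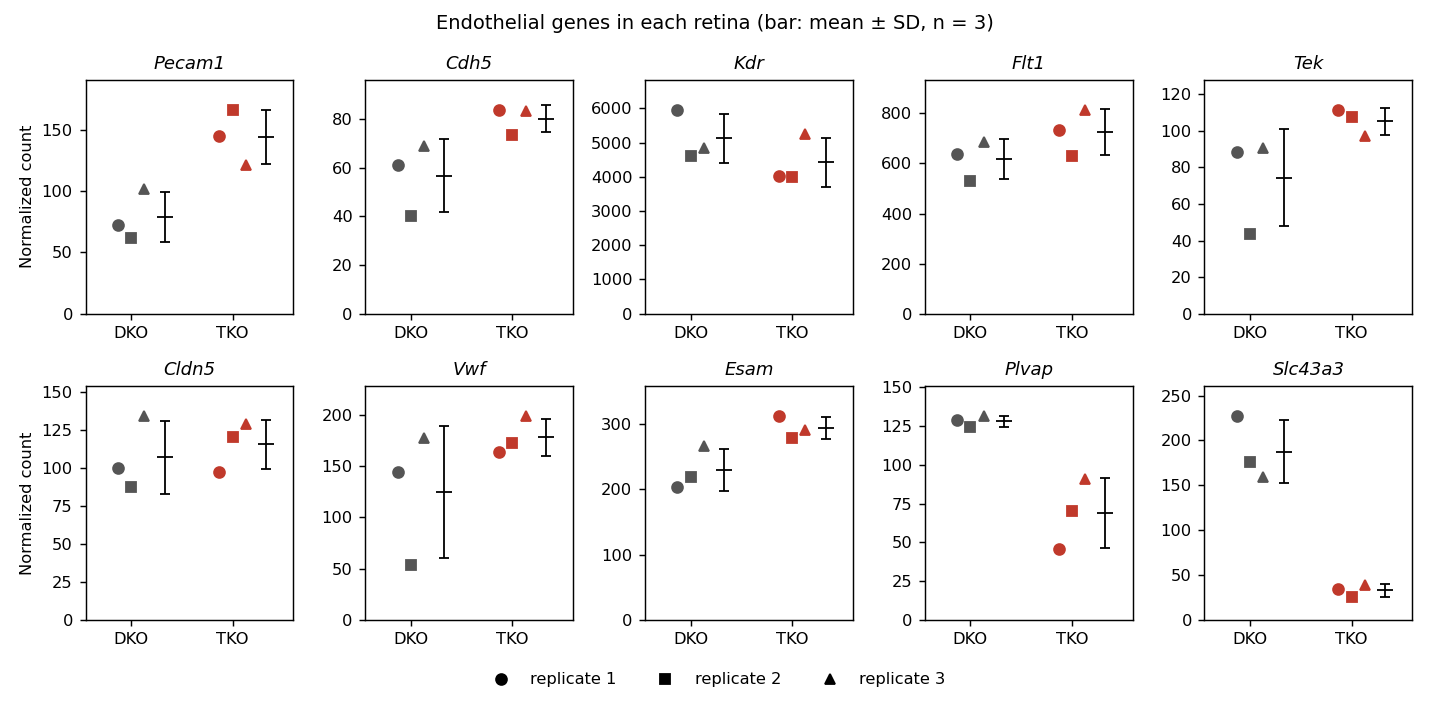
Normalized counts of the 10 endothelial genes in each DKO (grey) and TKO (red) retina, one panel per gene with its own linear axis from 0, marker shapes for the replicate numbers, and the mean ± SD (n = 3) beside the points. Slc43a3 lies at 25.3 to 39.3 in TKO and 160 to 227 in DKO retinae, Plvap is also lower in every TKO retina, and DKO replicate 2 is the lowest point for 6 of the 10 genes.

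The transporter gene Slc43a3 (chromosome 2, 84936579 to 84958509 on GRCm38, plus strand) showed the largest difference of the set. It had 226.8, 176.0 and 159.7 normalized counts in DKO replicates 1, 2 and 3. In TKO replicates 1, 2 and 3 it had 34.4, 25.3 and 39.3, from 30, 24 and 32 raw counts. Every TKO retina was thus far below the lowest DKO retina. The group means were 32.98 ± 7.11 and 188 ± 34.99 normalized counts (SD, n = 3 each). The log2 fold change was -2.51 with a standard error (SE) of 0.229 (edgeR's quasi-likelihood test, adjusted p = 0.00419). By p-value Slc43a3 ranked 11 among the 16904 genes, and by the size of the fold change it ranked 339. With 1 retina left out in turn, the log2 fold change ran from -2.65 to -2.34 and the adjusted p from edgeR was at most 0.0260. Genes of dividing cells and microglia differed as well: 7 of 8 mitosis genes were called lower, with summed normalized counts of 799 to 2467 in TKO and 5528 to 11257 in DKO retinae, and 6 of 10 microglia genes were called lower, with 1353 to 2581 and 3309 to 4865. The microglia calls numbered 0 without TKO replicate 2 or DKO replicate 2, 1 without DKO replicate 1 and 4 without TKO replicate 1, and the mitosis calls were 5 or more in each such fit. None of these marker genes was at 0 in every library, and their part, like that of the lens genes, in the Slc43a3 result was not tested.

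Plvap (chromosome 8, 71497765 to 71511752, minus strand), the fenestra protein gene, had 128.9, 124.3 and 131.2 normalized counts in DKO replicates 1, 2 and 3. TKO replicates 1, 2 and 3 had 45.9, 70.5 and 90.8. The DKO retinae were nearly equal, with a coefficient of variation (SD over mean) of 2.75%, while the TKO retinae were spread over 32.6% of their mean and stayed below all DKO retinae. Plvap fell by 0.89 on the log2 scale (SE 0.240, adjusted p = 0.0391 from edgeR). The call was narrow: leaving out TKO replicate 1 or 2 gave an adjusted p of 0.0754 or 0.114 from edgeR, and leaving out DKO replicate 1, 2 or 3 gave 0.108, 0.110 or 0.0648. The fold change stayed below 0 in each of these fits. Plvap is abundant in the choriocapillaris behind the retina. Of 11 genes of the choroid and retinal pigment epithelium (RPE), 1 was called, Rpe65, which was higher in TKO retinae and lost the call in 4 of the 6 fits with 1 retina left out (without replicate 1 or 2 of either genotype, adjusted p up to 0.119 from edgeR). The list is not limited to vessel genes, and Ttr alone had 1417 normalized counts in TKO replicate 2, so its sum does not measure choroidal vessels. The summed normalized counts of the 11 genes were 1480 to 2692 in TKO and 595 to 1565 in DKO retinae. The ranges of the groups overlapped, none of the 11 was at 0 in every library, and their part in the Plvap result was not tested.

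Of the junction genes, Pecam1 (chromosome 11, 106654217 to 106750628, minus strand), an adhesion molecule between neighbouring endothelial cells, reached 145.6, 166.3 and 121.5 normalized counts in TKO replicates 1, 2 and 3. The DKO values were 72.5, 62.2 and 101.9. All TKO retinae were above all DKO retinae, although TKO replicate 3 and DKO replicate 3 lay close. The log2 fold change was 0.87 (SE 0.224, adjusted p = 0.0336 from edgeR). It was 1.10 without DKO replicate 3 (adjusted p = 0.0123 from edgeR), whereas it lost the call when TKO replicate 1 or 2 (0.0852 or 0.125) or DKO replicate 1 or 2 (0.111 or 0.120) was left out.

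Esam (chromosome 9, 37528078 to 37538319, plus strand), an immunoglobulin-family adhesion molecule at tight junctions, had normalized counts of 311.9, 278.9 and 290.8 in TKO retinae and of 204.2, 219.7 and 265.9 in DKO retinae. The groups did not overlap, but the log2 fold change of 0.35 (SE 0.132) did not pass (adjusted p = 0.103 from edgeR). Without DKO replicate 3 it passed, at 0.47 (adjusted p = 0.0403 from edgeR). Cdh5 (chromosome 8, 104101625 to 104144511, plus strand), whose protein VE-cadherin holds adherens junctions together, had normalized counts of 83.7, 73.7 and 83.4 in TKO retinae and of 61.2, 40.3 and 69.1 in DKO retinae, again without overlap and short of the threshold (log2 fold change 0.50, SE 0.237, adjusted p = 0.183 from edgeR). Cldn5 (chromosome 16, 18776847 to 18778262, plus strand), the main claudin of barrier endothelium, overlapped between the groups, with normalized counts of 97.5, 120.0 and 128.9 in TKO retinae and of 99.8, 87.5 and 133.8 in DKO retinae. Its log2 fold change was 0.11 with a 95% interval from -0.37 to 0.58, and scaling by library totals alone turned it to -0.042.

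The receptor genes did not pass the test in either direction. Kdr (chromosome 5, 75932827 to 75978458, minus strand), the main signalling receptor for VEGF-A, had normalized counts of 4023, 3997 and 5259 in TKO retinae and of 5949, 4611 and 4837 in DKO retinae. TKO replicate 3 was higher than 2 DKO retinae, so the groups overlapped (log2 fold change -0.21, 95% interval from -0.54 to 0.11, adjusted p = 0.333 from edgeR). Flt1 (chromosome 5, 147561604 to 147726011, minus strand), which binds VEGF-A tightly and signals weakly, had normalized counts of 735, 628 and 812 in TKO retinae and of 637, 530 and 687 in DKO retinae, also with overlap (log2 fold change 0.23, 95% interval from -0.065 to 0.53, adjusted p = 0.249 from edgeR). Tek (chromosome 4, 94739289 to 94874976, plus strand), the angiopoietin receptor, had normalized counts of 111.2, 107.4 and 96.9 in TKO retinae and of 88.5, 43.8 and 90.7 in DKO retinae. Its groups did not overlap, yet the spread among DKO retinae was wide, and the log2 fold change of 0.50 had a 95% interval from -0.13 to 1.13 (adjusted p = 0.239 from edgeR). These intervals are not adjusted for the number of genes.

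Vwf (chromosome 6, 125546774 to 125686679, plus strand), made by endothelial cells and platelets, had the widest spread of the set among DKO retinae, with a coefficient of variation of 51.4% in DKO and 10.2% in TKO retinae. It had 143.99, 53.4 and 177.9 normalized counts in DKO replicates 1, 2 and 3. In TKO retinae it had 164.0, 172.6 and 198.8. DKO replicate 2 lay far below the other 5 libraries, and without it the log2 fold change went from 0.51 to 0.15 (adjusted p = 0.363 with and 0.660 without it, from edgeR). Of the platelet and red cell genes, Ppbp and 4 haemoglobin genes were at 0 in every library, Gp9 had at most 1 count, and the raw counts of the platelet gene Pf4 were 0, 2 and 1 in TKO libraries against 11, 10 and 5 in DKO libraries (adjusted p = 0.0527 from edgeR). Because the way reads were counted is uncertain, the haemoglobin zeros cannot show that red cell RNA was absent. The called gene of this list was Alas2, which encodes the haem synthesis enzyme of red cell precursors and was higher in TKO retinae (log2 fold change 1.77, adjusted p = 0.00942 from edgeR, at most 0.0455 with 1 retina left out). The part of these genes in the Vwf values was not tested.

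**Figure D2:**
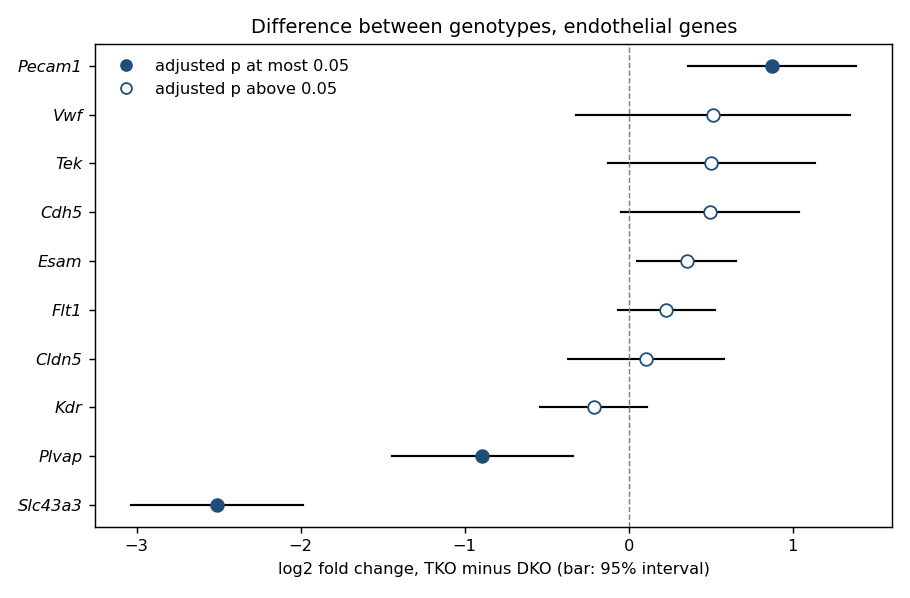
Log2 fold change (TKO minus DKO) of each endothelial gene with its unadjusted 95% interval from edgeR, filled where the adjusted p is at most 0.05. Slc43a3 (-2.51) and Plvap (-0.89) lie to the left and Pecam1 (0.87) to the right, and the intervals of Vwf, Tek, Cdh5, Flt1, Cldn5 and Kdr include 0.

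With Pecam1, Cdh5, Esam and Tek above and Slc43a3 and Plvap below, 6 of the 10 genes had groups that did not overlap. Of all genes tested, 38.6% had such groups: 18.0% were higher and 20.6% lower in TKO retinae.

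Levels were compared between genes as counts per kilobase of exon after scaling each library to the same TMM-scaled size. Kdr was by far the most abundant, at 44.9 ± 6.27 in DKO and 38.7 ± 6.31 in TKO retinae (SD, n = 3 each), and no other member came near it. Its level was 12.4 times that of Flt1 in DKO retinae and 9.13 times in TKO retinae. These ratios depend on the length used and were smaller with the longest transcript. By that length Kdr and Flt1 were at 68.5 and 7.09 in DKO retinae and at 59.1 and 8.32 in TKO retinae. Kdr made up 69.9% to 78.2% of all normalized counts of the set in a library. VEGFR2 is known from retinal progenitors and neurons as well as endothelium, and the libraries do not separate these sources.

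Below Kdr in DKO retinae came Esam (6.34 ± 0.885), Cldn5 (5.98 ± 1.34), Plvap (5.10 ± 0.140), Flt1 (3.62 ± 0.471) and Slc43a3 (3.32 ± 0.620). Esam and Cldn5, Cldn5 and Plvap, and Flt1 and Slc43a3 were neighbours whose retinae overlapped. Tek (1.25 ± 0.444), Cdh5 (1.07 ± 0.280), Pecam1 (1.00 ± 0.262) and Vwf (0.616 ± 0.317) formed the lower end, and each overlapped the next. In TKO retinae the order was Kdr, Esam, Cldn5, Flt1, Plvap, Pecam1, Tek, Cdh5, Vwf and Slc43a3. Slc43a3 was sixth in DKO and last in TKO retinae, at 0.584 ± 0.126, below every TKO value of Vwf (0.878 ± 0.0892). The order in the middle depended on the length used: with the longest transcript instead of all exons, Flt1 moved above Cldn5 in both groups and Pecam1 above Plvap in TKO retinae, while Kdr and Esam stayed on top.

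**Figure D3:**
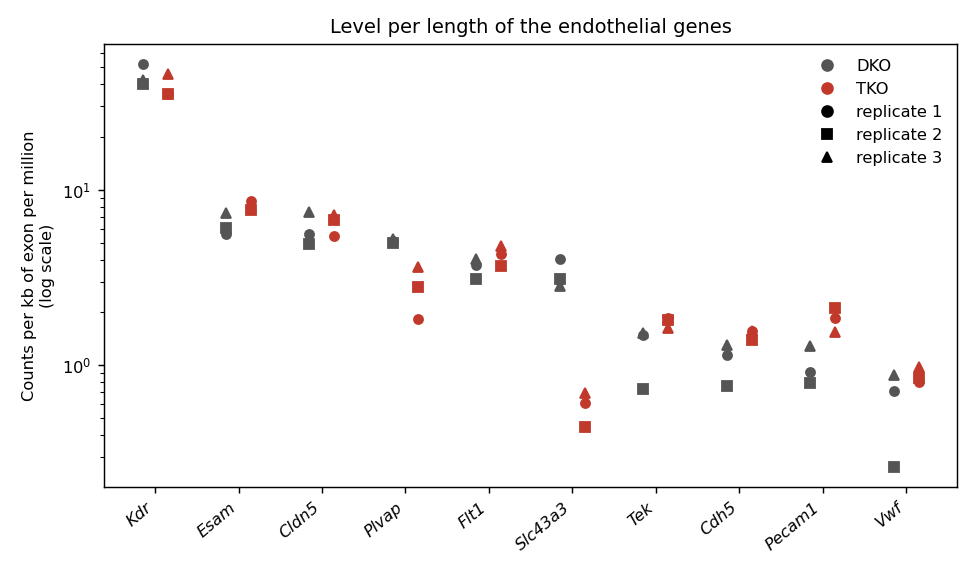
Level of each endothelial gene in each retina on a log axis, in counts per kilobase of exon scaled to library size, with DKO in grey and TKO in red and genes ordered by the DKO mean. Kdr lies between 34.99 and 52.1 and no other value exceeds 8.60, and Slc43a3 shows the widest gap between the groups.

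Because Kdr and Flt1 were the VEGF receptors of the set and differed so widely in level, their promoters are shown (RefSeq, GRCm38.p6, minus strand of chromosome 5, 300 bases around the annotated start, written 5′ to 3′). Capitals mark GGAA or its reverse complement TTCC, the core that ETS-family factors bind. These factors are known regulators of endothelial genes.
Kdr chr5:75978406-75978705: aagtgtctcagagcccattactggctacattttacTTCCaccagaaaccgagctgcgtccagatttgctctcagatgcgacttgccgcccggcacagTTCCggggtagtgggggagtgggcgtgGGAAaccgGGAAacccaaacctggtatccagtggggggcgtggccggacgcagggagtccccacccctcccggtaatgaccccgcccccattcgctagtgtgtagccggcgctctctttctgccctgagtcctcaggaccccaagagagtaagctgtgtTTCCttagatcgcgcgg
Flt1 chr5:147725962-147726261: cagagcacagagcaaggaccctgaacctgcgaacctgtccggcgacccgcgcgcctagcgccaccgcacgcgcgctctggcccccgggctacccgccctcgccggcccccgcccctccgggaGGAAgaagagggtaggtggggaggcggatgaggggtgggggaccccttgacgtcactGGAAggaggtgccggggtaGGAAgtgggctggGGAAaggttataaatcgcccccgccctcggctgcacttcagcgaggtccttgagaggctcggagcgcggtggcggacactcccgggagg
The Kdr window held 5 matches, 2 of them as GGAA, and the Flt1 window held 4, all as GGAA. At least as many matches were found in 28.6% and 46.3% of 32851 promoters of that length, and 96.0% held at least 1, so such counts were not unusual. The longer ETS sequence CCGGAA, which contains GGAA, occurred once in the Kdr window (as TTCCGG) and not in the Flt1 window, beside 14.9% of all promoters. The E2F-type sequences TTTCCCGC and TTTGGCGC, searched on both strands, were in neither window, beside 1.07% and 0.514% of all promoters. Promoters were matched for 4 of the 10 genes, Kdr, Flt1, Tek and Cldn5, and the Tek and Cldn5 windows held 2 and 0 GGAA matches.

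The retinae of a group differed in a similar way across many members. DKO replicate 2 was the lowest DKO retina for 8 of the 10 genes and DKO replicate 3 the highest for 8, where 28.9% and 36.9% of the 14976 genes with a mean normalized count of at least 10 showed that order. In a separate list of other endothelial genes, 16 of 27 (59.3%) were lowest in DKO replicate 2 and 13 of 27 (48.1%) highest in DKO replicate 3. Parts of this order were not particular to endothelial genes. Of basement membrane genes 80% and of tip cell and Notch genes 63.6% were lowest in DKO replicate 2. Of rod genes 100% and of Norrin and barrier genes 60% were highest in DKO replicate 3. Microglia genes (10% and 0%) and mitosis genes (0% and 0%) did not show this order. The coefficient of variation was larger among DKO than TKO retinae for 7 of the 10 genes, against 46.6% of all genes. Kdr, Plvap and Slc43a3 were the exceptions.

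To set Slc43a3 and Plvap beside the rest of the set in each retina, the normalized counts of the other members without Kdr (Pecam1, Cdh5, Tek, Vwf, Esam, Cldn5 and Flt1) were summed, a group chosen after the values were seen and therefore described only. These 7 are the members whose fitted log2 fold change was above 0, so the direction of their sum follows from the choice. The sum was 1649, 1547 and 1733 in TKO replicates 1, 2 and 3. It was 1307, 1037 and 1527 in DKO replicates 1, 2 and 3. Every TKO retina was higher, by a small margin over DKO replicate 3. The sums over all 10 members overlapped, at 5640 to 7121 in TKO and 5948 to 7612 in DKO retinae. Without Kdr alone they also overlapped, at 1643 to 1863 in TKO and 1337 to 1817 in DKO retinae. Slc43a3 equalled 2.09%, 1.63% and 2.27% of that sum in TKO and 17.4%, 17.0% and 10.5% in DKO retinae. Plvap equalled 2.78%, 4.56% and 5.24% in TKO and 9.86%, 11.99% and 8.60% in DKO retinae. Both ratios were thus lower in every TKO retina, as the counts were, and the choice of the summed genes favours that direction.

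**Figure D4:**
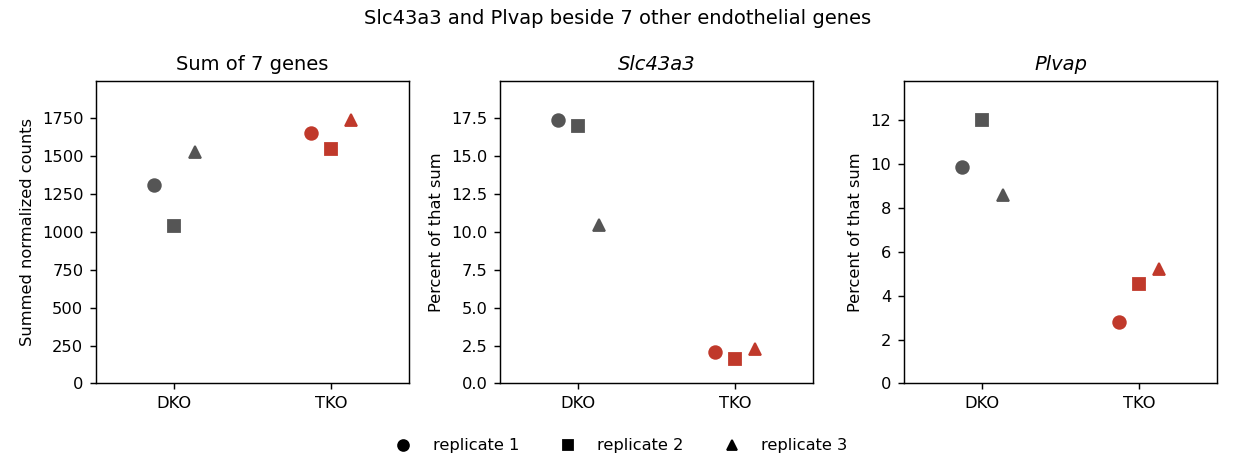
Left, summed normalized counts of 7 endothelial genes (Pecam1, Cdh5, Tek, Vwf, Esam, Cldn5, Flt1) in each DKO and TKO retina. Middle and right, Slc43a3 and Plvap as a percentage of that sum, with linear axes from 0 and one point per retina. The sum is 1037 to 1527 in DKO and 1547 to 1733 in TKO retinae, while both percentages are lower in TKO retinae. The 7 genes are the members with fitted log2 fold changes above 0, so the direction of the sum follows from the choice.

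Genes near the members were compared as well. Near Pecam1 on GRCm38, Polg2, a subunit gene of the mitochondrial DNA polymerase 17.6 kb away, and Ern1, an endoplasmic reticulum stress sensor gene 166 kb away, rose by 1.27 and 0.66 on the log2 scale (adjusted p = 0.0106 and 0.0432 from edgeR). Milr1, the nearest, had 0.71 without overlap of the groups (adjusted p = 0.0876 from edgeR), and Tex2, Ddx5 and Snord104 did not pass. Bst2, an interferon-induced antiviral gene, lies 22.5 kb to the right of Plvap and fell by 2.03 on the log2 scale (adjusted p = 0.00193 from edgeR), whereas the nearest tested gene on the other side, Ano8, had a log2 fold change that did not pass, -0.23 (adjusted p = 0.153 from edgeR). Beside Slc43a3, its paralog Slc43a1 was low, averaging 7.67 (TKO) and 23.9 (DKO) normalized counts, with overlap (adjusted p = 0.0799 from edgeR). Ssrp1, a histone chaperone gene 78.7 kb to the right, fell by 0.51 on the log2 scale (adjusted p = 0.0158 from edgeR), and P2rx3 and Rtn4rl2, which lie nearer, did not pass. Cldn5 had a log2 fold change near 0 although Cdc45, a replication gene 2.185 kb away, fell by 1.41 on the log2 scale (adjusted p = 0.0150 from edgeR). Beside other members that were not called, Ano2 (by Vwf) and Pan3 (by Flt1) were higher in TKO retinae (adjusted p = 0.0228 and 0.0355 from edgeR). Kit (by Kdr), Robo3 (by Esam) and Jun (by Tek) were lower (adjusted p = 0.00733, 0.0187 and 0.0416 from edgeR). Called neighbours were thus not limited to called members. The called genes named here were all those called among the neighbours compared, and most neighbours compared were not called. Of all genes tested, 16.6% were called. Whether members and their neighbours changed together was not tested. Plvap overlaps Gtpbp3 and Cdh5 overlaps an antisense gene on the opposite strand, but no member shared exon bases with another annotated gene.

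Other genes of the vessel wall were read from lists of known vascular genes. Of 28 further endothelial genes 27 were tested, and edgeR called 3 higher and 0 lower (6 and 1 at an unadjusted p under 0.05), with a median log2 fold change of 0.29. For this and the lists below, the shares over all genes tested were 7.35% called higher and 9.20% called lower. The 3 were Podxl (podocalyxin, a surface sialomucin; log2 fold change 1.18, adjusted p = 0.0257 from edgeR), Adgrl4 (an adhesion receptor of vessels, listed in the table by its older symbol Eltd1; 0.89, adjusted p = 0.0153 from edgeR) and Nos3 (endothelial nitric oxide synthase; 0.70, adjusted p = 0.0218 from edgeR). Podxl was the most abundant of the list, averaging 2936 (TKO) and 1293 (DKO) normalized counts. Like the rod genes, it was lowest among TKO retinae in replicate 3 and highest among DKO retinae in replicate 3. The part of cells other than endothelium in its counts was not tested. S1pr1 and Itm2a, also among the most abundant, had values of 0.29 and -0.52 that did not pass. No gene of this list was called once TKO replicate 2 or DKO replicate 1 or 2 was left out, and 1 was called without TKO replicate 1.

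Pericyte and smooth muscle genes gave a median of 0.29, and Vtn alone of 14 was called, higher in TKO retinae (log2 fold change 1.64, adjusted p = 0.0106 from edgeR, at most 0.0517 with 1 retina left out). Vtn encodes vitronectin, which photoreceptors also express, and 7 of 7 rod genes were called higher in TKO retinae (2 to 4 without TKO replicate 2, DKO replicate 1 or DKO replicate 2), but their part in the Vtn result was not tested. No pericyte gene was called without DKO replicate 1 or 2, and 3 were called higher and 1 lower without DKO replicate 3. The pericyte genes Pdgfrb, the receptor for PDGF-B, and Rgs5 had log2 fold changes of 0.36 and 0.41 (adjusted p = 0.277 and 0.302 from edgeR). Of 10 vascular basement membrane genes 1 was called lower, the nidogen gene Nid1 (-1.25, adjusted p = 0.00700 from edgeR), while 4 were called lower without TKO replicate 3 and 4 were lower at an unadjusted p under 0.05. All 10 fitted values were below 0, with a median of -0.28, where 48.8% of all genes tested were above 0. The collagen IV genes Col4a1 and Col4a2 had -0.15 and -0.034 and did not pass, and both fitted values turned above 0 in some fits with 1 retina left out, up to 0.040 and 0.069.

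In the VEGF and angiopoietin pathway, the ligand gene Vegfa averaged 2557 ± 190 (TKO) and 2204 ± 284 (DKO) normalized counts (SD, n = 3 each), and its log2 fold change of 0.21 did not pass (adjusted p = 0.209 from edgeR). The called genes of this list were 3 of 14, all lower in TKO retinae, and 1 gene was higher at an unadjusted p under 0.05. Angpt1, the ligand that activates TIE2, had 52.0 ± 18.7 and 135 ± 20.8 normalized counts in TKO and DKO retinae, and fell by 1.38 on the log2 scale (adjusted p = 0.0129 from edgeR). Nrp1 and Nrp2, co-receptors for VEGF and semaphorins that neurons also carry, fell by 1.06 and 0.41 on the log2 scale (adjusted p = 0.00554 and 0.0414 from edgeR). Nrp1 held with each retina left out (adjusted p at most 0.0375 from edgeR), whereas Angpt1 reached 0.0597 and Nrp2 0.132. With TKO replicate 2 or DKO replicate 1 or 2 left out, 1 gene of the list was called.

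Of 11 genes of tip cells and Notch signalling, which sets sprouting against stalk cells and also acts in retinal progenitors, 2 were called lower and 1 higher. Dll4, the Notch ligand of tip cells, which newborn retinal neurons also express, averaged 36.1 ± 18.9 (TKO) and 220 ± 61.2 (DKO) normalized counts (SD, n = 3 each), and its log2 fold change was -2.62 (adjusted p = 0.00691 from edgeR, at most 0.0388 with 1 retina left out). Notch1 fell by 0.88 on the log2 scale (adjusted p = 0.0108 from edgeR), and the ligand gene Jag1 rose by 1.03 (adjusted p = 0.0123 from edgeR), with at most 0.0535 and 0.0595 when 1 retina was left out. Jag2 did not pass (-0.039, adjusted p = 0.866 from edgeR). Without TKO replicate 2 or DKO replicate 1 or 2 no gene of the list was called higher, and without TKO replicate 2 only 1 was called lower. The tip cell gene Esm1 had at most 3 counts in a library.

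Norrin signalling and barrier genes went both ways, with 4 of 20 called higher, 2 lower and a median of 0.0061. Slco1a4, an organic anion transporter of barrier endothelium, rose from 117 ± 20.4 to 265.2 ± 19.6 normalized counts (log2 fold change 1.17, adjusted p = 0.00691 from edgeR, at most 0.0388 with 1 retina left out). Abcb1a, the P-glycoprotein efflux pump, had a log2 fold change of 0.88, the monocarboxylate transporter gene Slc16a1 0.93, and Fzd4, the Norrin receptor, 0.60 (adjusted p = 0.0471, 0.0222 and 0.0400 from edgeR). Like the rod genes, Slco1a4, Abcb1a, Slc16a1 and Fzd4 were lowest among TKO retinae in replicate 3 and highest among DKO retinae in replicate 3. The part of cells other than endothelium in their counts was not tested. Lrp5, the co-receptor of frizzled-4, fell by 0.96 and the Wnt antagonist gene Apcdd1 by 0.38 on the log2 scale (adjusted p = 0.0136 and 0.0316 from edgeR). The glucose transporter gene Slc2a1 (0.42, adjusted p = 0.0535 from edgeR) and the junction scaffold gene Tjp1 (0.039, adjusted p = 0.820 from edgeR) did not pass. With TKO replicate 2 or DKO replicate 1 or 2 left out, 1 gene of this list was called higher and none lower.

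Leukocyte adhesion molecules are shown by activated endothelium to passing white cells, and glia can also make them. Their list, which also held the chemokine receptor gene Ackr1, included 2 called genes of 4 tested, both lower in TKO retinae. Icam1 averaged 32.0 ± 9.98 (TKO) and 131 ± 36.3 (DKO) normalized counts (SD, n = 3 each), and its log2 fold change was -2.03 (adjusted p = 0.00731 from edgeR, at most 0.0404 with 1 retina left out). Vcam1 fell by 1.11 on the log2 scale (adjusted p = 0.0217 from edgeR, at most 0.0789 with 1 retina left out), and 1 gene of the list was called without TKO replicate 1, TKO replicate 2 or DKO replicate 1. The selectin genes Sele and Selp were at or near 0 in TKO libraries and had at most 5 and 9 counts in a DKO library. Ackr1 did not pass, at -0.20 (adjusted p = 0.220 from edgeR).

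**Figure D5:**
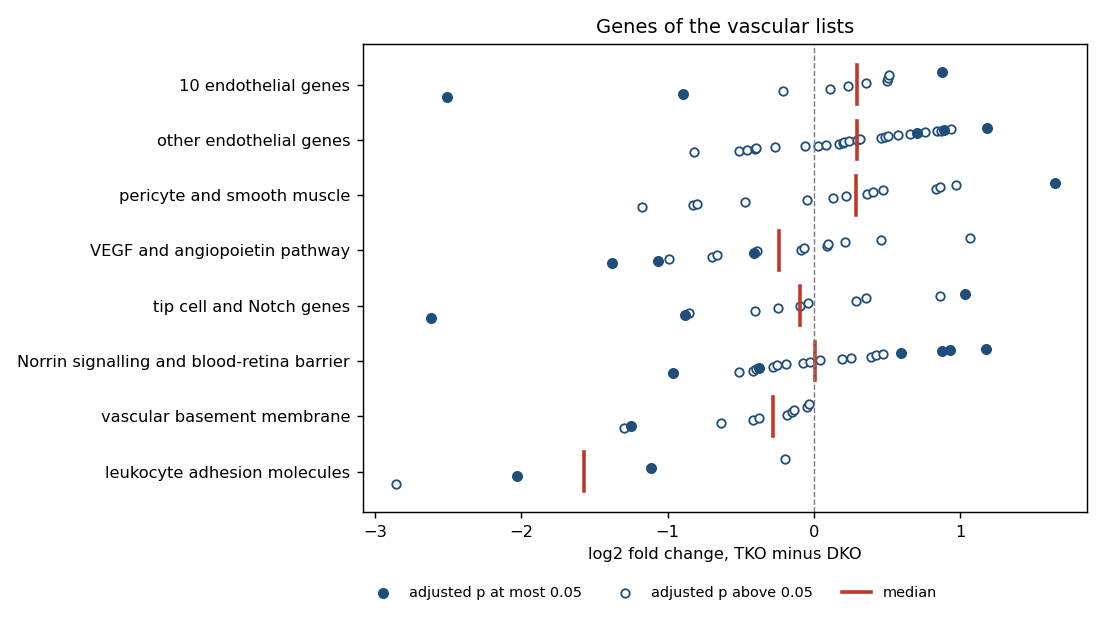
Log2 fold change (TKO minus DKO) of every tested gene of the endothelial set and the other vascular lists, one point per gene, filled where the adjusted p from edgeR is at most 0.05, with a red bar at each list's median. The medians are 0.29 for the 10 endothelial genes, the other endothelial genes and the pericyte genes, and they lie below 0 for the VEGF, tip cell, basement membrane and leukocyte adhesion lists.

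Genes with a profile like that of the set were sought among 12893 genes with a mean normalized count of at least 50, by Pearson's r with the mean of the 10 genes' centred log2 values over the 6 libraries. That mean was lowest in DKO replicate 2, at -0.31, and highest in DKO replicate 3, at 0.23, and lay between -0.077 and 0.12 in the others. The 10 nearest genes, from 4930563E22Rik (r = 0.96), Pcdhga10 and Plec to Zfhx3 (r = 0.94), had log2 fold changes between -0.12 and 0.053 and none of them passed the test (adjusted p of 0.678 or more from edgeR). Genes picked for likeness to a mean that differed little between the genotypes would have such small values, so the lack of calls is no separate result. This likeness describes the order of 6 libraries only.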

How the data were processed

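RNA-seq counts of 6 P21 retinae, 3 per genotype, were analysed, with groups and replicate numbers from the sample titles. The authors deposited raw read counts per gene symbol, 1 column per retina. The paper's methods name alignment to GRCm38 with STAR and counting with HTSeq, while the submitters' processing notes list TopHat2 and featureCounts, so the counting tool and its strand setting are uncertain.

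Genes with a sum under 10 were removed, and 16904 genes were tested with edgeR 4.0.16 in R 4.3.3 (TMM, glmQLFit and glmQLFTest, Benjamini-Hochberg adjustment over all of them). Standard errors were obtained by dividing the size of the log2 fold change by the square root of F, and the 95% interval uses the fit's degrees of freedom. The mean normalized count in the study's limits used DESeq2 size factors. The test was checked on simulated counts. DESeq2 1.42.0, other scalings, filters, dispersions, thresholds and samples were alternatives. Library totals of 10343907 to 14203098 leave members with 24 to 6321 raw counts, and no replicate pair agreed within sampling noise (chi-square over its degrees of freedom, 8.97 to 26.6).

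Coordinates and lengths came from GENCODE M21 (GRCm38), promoters from RefSeq. The 10 genes were given by name, and the members and lists were chosen with earlier results of these data known. Named genes were all members, Hells, Rb1 and Rbl1, and the 10 genes most like the members' mean. In each other vascular list they were the 3 most abundant and those with an adjusted p of at most 0.05. Other genes named, such as neighbours, Esm1, Gp9, Ppbp, Sele and Selp, were chosen after their values were seen. The counts of called genes in each list with 1 retina left out were added after seeing the data. Same-numbered TKO and DKO retinae did not deviate together (correlations of deviations 0.069, -0.045 and -0.18), so the numbers were not used as pairs. Set tests were not run.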

Additional observations from a re-analysis of the deposited data

How the results depend on the processing

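DESeq2, upper-quartile or RLE factors, other filters and robust dispersion left the number of endothelial genes called as it was. Slc43a3 passed an adjusted p of 0.05 under all 15 alternatives (log2 fold change -2.67 to -2.34), Pecam1 under 10 and Plvap under 9, and Kdr, Flt1, Tek, Cdh5, Cldn5 and Vwf under none. Hells passed under all 15. Cldn5 turned to -0.042 with total counts only and to -0.019 without DKO replicate 2. With total counts only, the median log2 fold change of the set was 0.14, 2 endothelial genes passed the study's limits (2 lower), and 778 genes were called higher and 2610 lower at an adjusted p of 0.05 from edgeR, against 1243 and 1556 with TMM (23.0% against 44.4% higher). An adjusted p of at most 0.01 left 1 endothelial gene (0 higher, 1 lower), as that threshold is stricter. With the replicate number as a block, 1 endothelial gene was called (0 higher, 1 lower). In all, 106 genes passed an adjusted p of 0.05 (24 higher, 82 lower) and 90 the study's limits (15 higher, 75 lower). The numbers did not pair the retinae. Leaving out 1 retina moved the median of the set between 0.14 and 0.39 and Cldn5 between -0.019 and 0.30. It gave 1 to 3 endothelial genes called (0 to 2 higher, 1 to 2 lower), and 1 to 2 with the study's limits (0 to 1 higher, 1 to 2 lower). Over all genes it gave 647 to 3590 calls (214 to 1617 higher, 404 to 1973 lower), and 471 to 1500 with the study's limits (121 to 476 higher, 312 to 1024 lower). The cause was not tested for changes whose setting does not itself lower the number of samples or tighten the threshold. Counts of 24 to 32 for Slc43a3 in TKO libraries limit its precision there.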
